A study of Apis mellifera with 36 samples.

Results

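Among the worker honey bees (Apis mellifera) of colony 5, brain expression was compared between 6 unresponsive bees and 6 guards, 12 of the 36 bees sequenced. The members were chosen by label alone, as every bee of that colony called unresponsive or guard, and they carry the title numbers 5, 19, 32, 35, 36 and 40, each once per type. A bee is named here by its type followed by its title number. All 12 were workers aged 7 days from the colony labelled 5 (R22), whose queen had been inseminated with the sperm of 1 drone. They were reared from emergence in laboratory dishes of 10 bees and received no treatment other than the behavioural assays.

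Per the labels' protocols, each dish was offered an unrelated intruder bee and a queen larva, and both tests were repeated. Guards had bitten or stung the intruder each time, and unresponsive bees had shown no overt social response to either stimulus. The same dishes supplied 6 nurses, which fed the larva in both tests and serve here as a reference. Colony 6, a second colony of the same kind with 6 bees of each type, gave an independent reading of the same contrast. Each colony stands for a single family and its rearing, and the assays cover a few minutes of a bee's behaviour.

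Guarding is a task that some workers take up before they forage: guards inspect and attack intruders, whereas nurses feed the brood. The mushroom bodies are paired brain centres of learning and multisensory integration, and the dissected tissue was mostly these together with central brain, with optic lobes, antennal lobes and hypopharyngeal glands removed. Deformed wing virus (DWV) is a widespread RNA virus of honey bees that can infect the brain without visible symptoms. The question the comparison addresses is whether bees that ignored both social stimuli differed in brain expression from nestmates that attacked. Tissue identity could not be checked against marker genes, because none of the 15314 gene identifiers (IDs) in the files could be paired with a gene name. For the same reason no role can be given for any gene below.

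The comparison gave very few differences. Of 10760 genes tested, 0 passed an adjusted p of 0.05 by the edgeR quasi-likelihood test (0%), and the smallest adjusted p was 0.741. An unadjusted p under 0.05 was reached by 377 genes (3.5%), 218 with the higher level in unresponsive bees and 159 with the higher level in guards. If no gene differed, 538 would be the mean count. The count depended on single bees and lay above that mean without Unresponsive 35 (579) or without Unresponsive 36 (659). DESeq2, a second count model, called 2 genes of 13593 (0.0147%), GB41946 with the higher level in unresponsive bees and GB54846 with the higher level in guards. Both have low to moderate levels, and both are described below bee by bee.

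Pairing each unresponsive bee with the guard of its title number did not change that picture. With the number as a block, 0 of the 10760 genes passed by edgeR (0%) and 451 had an unadjusted p under 0.05 (4.19%), of which 290 were also among the 377. DESeq2 with the same block called 3 genes of 13629 (0.022%), GB43552, GB40217 and GB44021, and 0 genes were called by DESeq2 in both models. The unresponsive bee had the higher level in all 6 pairs for 161 genes (1.5%) and the lower level in all 6 for 158 (1.47%). Random directions (64 orders) give all 6 pairs the same direction, either way, with a probability of 0.0313. The counts of 161 and 158 are not above what this gives, so 6 of 6 pairs alone does not mark a difference. Per the labels, 6 dishes per colony supplied the bees, but the labels do not say that a title number is a dish.

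**Figure D1:**
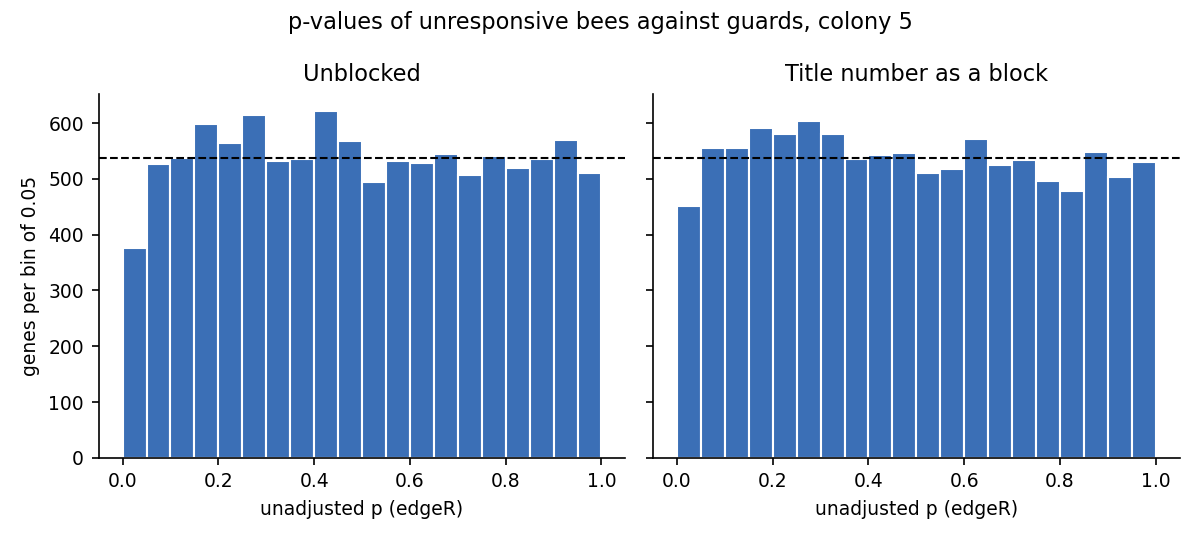
Histograms of unadjusted edgeR p-values for 10760 genes in bins of 0.05, unblocked on the left and with title number as a block on the right; the dashed line marks 538 genes per bin, the mean if no gene differed. The lowest bin holds 377 genes unblocked and 451 with the block, both under the line, which the unblocked count exceeds without Unresponsive 35 (579) or Unresponsive 36 (659).

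The size of difference that could have escaped these tests depends on the spread between bees, given here as a 95% interval per gene. The intervals were not adjusted for the number of genes, so some of them can miss the true change. For 94.5% of the genes, 10163 of 10760, the 95% interval of the change lay within 2-fold in either direction. It lay within 1.5-fold for 81.8% and within 1.2-fold for 51.5%. Precision followed the level of the gene, given in CPM (counts per 1000000 counts of the library). Of 2449 genes at 100 CPM and over, 98.0% had an interval within 1.5-fold, and of 5481 genes from 10 to 100 CPM 95.8% did. Of 2372 genes from 1 to 10 CPM 48.1% did, and of 458 genes under 1 CPM 0.655% did. Intervals were thus narrow for abundant genes and wide for rare ones. The 20 most abundant genes, at mean levels of 2731 to 11131 CPM, had log2 changes from -0.22 to 0.12, and 0 of them had an unadjusted p under 0.05. The estimated change exceeded 2-fold in 50 genes, of which 12 had an unadjusted p under 0.05.

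**Figure D2:**
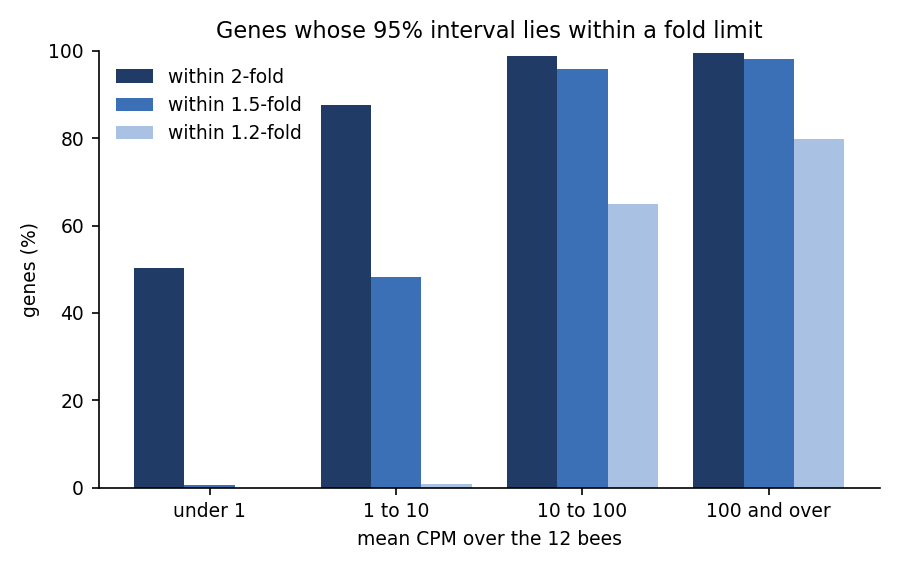
Share of genes, in percent, whose 95% interval of the unresponsive-to-guard ratio lies within 2-fold, 1.5-fold or 1.2-fold, by mean CPM over the 12 bees. At 100 CPM and over the bars stand at 99.5%, 98.0% and 79.9%, and under 1 CPM at 50.2%, 0.655% and 0%.

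The largest axes of variation did not follow behavioural type. The first and second principal components of log2 CPM held 18.4% and 15.2% of the variance, and the types were interleaved on the first, where unresponsive bees ran from -17.7 to 24.2 and guards from -12.9 to 22.2. On the third, with 11.6%, guards lay between -0.944 and 8.38 and unresponsive bees between -24.3 and 16.6, and the unresponsive bee lay below the guard of its number in every pair but that of number 35. Averaged over genes, behavioural type held 8.67% of the variance among the 12 bees, with 9.09% of the degrees of freedom, and title number held 48.6%, with 45.5%. Single bees departed in many genes: Unresponsive 19 stood more than 2-fold above the median of the other 11 in 164 genes, Unresponsive 32 in 139 and Guard 5 in 124, against 36 to 96 genes for the remaining 9 bees. In the other direction, more than 2-fold below that median, Guard 5 had the most genes, 157, followed by Unresponsive 5 with 148, and Unresponsive 19 had the fewest, 79. The median SD of log2 CPM was 0.154 among unresponsive bees and 0.144 among guards, and 5894 of the 10760 genes had the larger SD among unresponsive bees. The tissue is a mixture of cells, so fewer cells of a type and less RNA per cell cannot be told apart in any value given here.

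DWV reads were found at high levels in 11 of the 12 bees. The unresponsive bee of each number carried more than the guard, with both bees in that high range in every pair but that of Guard 35. In DWV reads per 1000000 total reads (RPM), unresponsive bees ran from 10469 to 28967 with a median of 17253, and guards from 20.1 to 17990 with a median of 10768. Guard 35, at 20.1 RPM, was the 1 bee of low load, and the other 5 guards had at least 10412 RPM. The groups overlapped, because Guard 19 lay above 4 unresponsive bees and Unresponsive 35 lay below 4 guards.

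Pair by pair the ratio of unresponsive bee to guard was 2.65 for number 5, 1.28 for number 19 and 1.45 for number 32. It was 1.70 for number 36, 1.48 for number 40 and 521 for number 35, the pair of Guard 35. The direction was thus the same in 6 of 6 pairs. Mean log10 RPM was 4.25 ± 0.151 in unresponsive bees and 3.62 ± 1.14 in guards (SD, n = 6 each), a difference of 0.63 (two-sided exact permutation test, p = 0.0433). Paired by number, the exact sign-flip test gave p = 0.0313, the smallest that 6 pairs allow. Adjusted over this and 6 other library measures, these became 0.303 and 0.0729 in the exact tests, so neither passed. The paired value could have passed only if most of the 7 measures had also reached the smallest p. Its adjusted value therefore decides nothing about load. Without number 35 the difference was 0.22 (exact permutation p = 0.0317), with the same direction in 5 of 5 pairs, and without Guard 35 alone it was 0.17 (exact permutation p = 0.0714). Leaving out any one of the 6 unresponsive bees gave exact permutation p-values of 0.0519 to 0.208, the highest without Unresponsive 5, with differences of 0.59 to 0.68. Of the 6 nurses, 2 were in that range at 15626 and 27324 RPM, and the other 4 had 10.0 to 63.9 RPM.

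The read shares had the same direction in every pair as well, but together with the DWV share they add up to all reads. The share of reads mapped to the bee genome was 79.0% ± 2.68 in unresponsive bees and 81.6% ± 2.1 in guards (SD, n = 6 each), lower in the unresponsive bee of 6 of 6 pairs. The share mapped to neither the bee nor the virus was 19.2% ± 2.04 and 17.4% ± 1.53, higher in 6 of 6 pairs. With this share and the DWV share both higher in every pair, the genome share must be lower. Its direction is thus no separate result. Unresponsive 5 had both the highest load and the highest share mapped to neither, 22.5%, and Guard 35 had the lowest load and the lowest share, 14.9%. Neither measure passed after adjustment over the 6 library measures (exact permutation, adjusted p = 0.396 for both; exact sign-flip by pairs, 0.0938 for both). By pairs both stood at the smallest p possible, so they could have passed only if most of the 6 measures had reached it. Counts over genes, 16.4 to 19.7 M (mega) per bee, and the number of genes with a count differed by less than the spread between bees (exact permutation, adjusted p = 0.724 and 0.771). With log10 load as a covariate 0 genes passed by edgeR and 315 had an unadjusted p under 0.05. Guard 35 lay far below the other 11 bees in log10 load, so that covariate rests largely on this 1 bee. It can adjust little for load among the other 11. The part of the read shares in the gene values below was not tested.

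**Figure D3:**
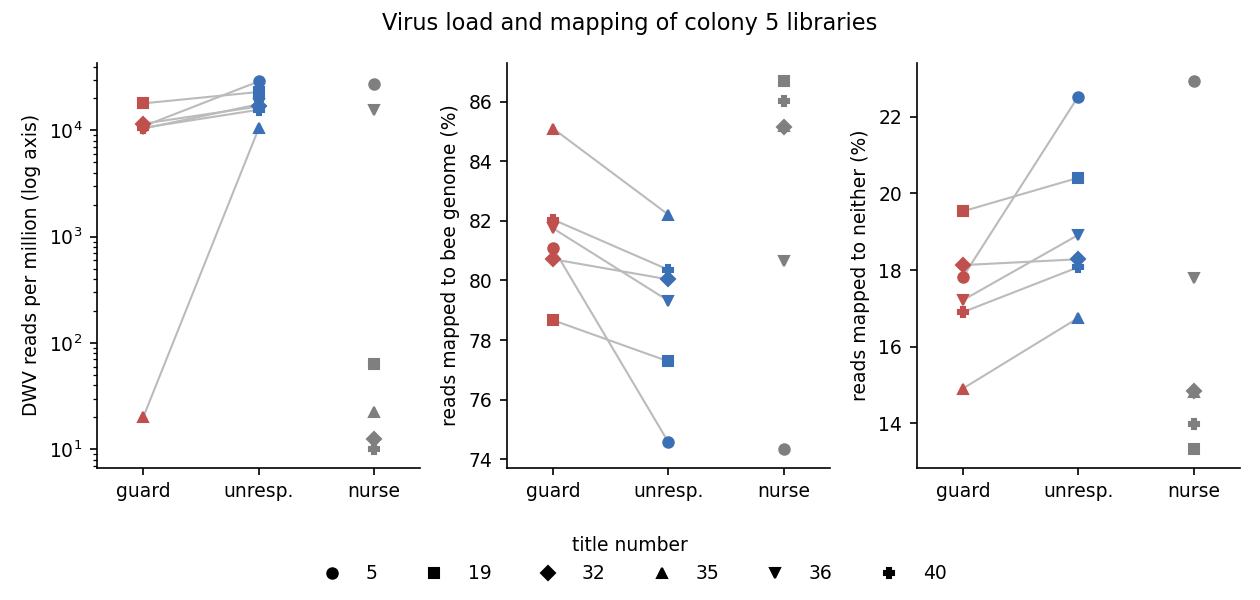
DWV reads per 1000000 total reads (log axis), percent of reads mapped to the bee genome and percent mapped to neither genome nor virus, 1 point per colony 5 bee; lines join the guard and the unresponsive bee of a title number, and nurses are in grey. All 6 lines go up for DWV and for reads mapped to neither. All 6 then go down for the bee genome, because the shares add up to all reads. Guard 35 stands alone at 20.1 RPM.

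Among genes with the higher level in unresponsive bees, GB41946 had the smallest p. Unresponsive bees ran from 7.54 to 13.1 CPM with a median of 11.0, guards from 5.15 to 7.76 CPM with a median of 6.28, and nurses from 6.81 to 14.3 CPM with a median of 9.16. Only Unresponsive 35, at 7.54 CPM, lay within the range of the guards, below Guard 32, and the unresponsive bee was the higher in 6 of 6 pairs. On the log2 scale the change was 0.76 ± 0.15 (SE), and the ratio was 1.69 with a 95% interval of 1.35 to 2.12 (adjusted p = 0.741 by edgeR, 0.0167 by DESeq2). Nurses spanned both ranges: Nurse 19, Nurse 35 and Nurse 40 had 6.81 to 7.92 CPM, and the other nurses 10.4 to 14.3 CPM. In colony 6 unresponsive bees had a median of 15.0 CPM and guards of 10.8 CPM, a log2 change of 0.51 ± 0.18 (unadjusted p = 0.0135 by edgeR).

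GB43552 had the largest change of the genes named. Guards were tightly grouped at 8.95 to 12.2 CPM, with a median of 10.7, while unresponsive bees ran from 11.0 to 50.2 CPM with a median of 26.2. Unresponsive 32 was the highest bee, Unresponsive 5, Unresponsive 36 and Unresponsive 40 had 23.6 to 32.5 CPM, and Unresponsive 19 and Unresponsive 35 stood at 11.0 and 14.5 CPM near the guards. Guard 19 and Unresponsive 19 were the lowest of their types, and the unresponsive bee was the higher in 6 of 6 pairs. Unresponsive bees stood 2.54-fold above guards, with an interval of 1.60 to 4.04 and a log2 change of 1.35 ± 0.31 (adjusted p = 0.982 by edgeR, 0.0975 by DESeq2 and 4.00e-05 by DESeq2 with the block). Nurse 35 had 29.4 CPM and the other 5 nurses 13.4 to 15.6 CPM, all above every guard. In colony 6 the medians were 14.3 CPM in unresponsive bees and 14.9 CPM in guards, with a log2 change of 0.33 ± 0.26.

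GB40217 divided the unresponsive bees. In 5 of the 6 it stood at 49.9 to 65.4 CPM, above every guard, but Unresponsive 40 had 24.8 CPM, below every guard. Guards had 28.2 to 39.4 CPM with a median of 31.8. Nurse 5 stood with the higher bees at 59.3 CPM, and the other nurses had 28.7 to 39.2 CPM. Guard 40 and Nurse 40 were also the lowest bees of their types. Over all 12 bees the log2 change was 0.71 ± 0.19 (adjusted p = 0.982 by edgeR, 0.0184 by DESeq2 with the block). Without Unresponsive 40 it was 0.85 and passed by edgeR with an adjusted p of 0.00253, the single call made in any of the 12 edgeR fits that left out 1 bee. In colony 6 unresponsive bees had 39.1 to 61.3 CPM with a median of 54.4, and guards 43.9 to 68.6 CPM with a median of 52.7.

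GB41096 and GB54320 had the smallest p in this direction once bees were paired by number. GB41096 ran from 7.97 to 14.4 CPM in unresponsive bees, with a median of 9.09, and from 3.74 to 8.93 CPM in guards, with a median of 5.29. Guard 35 was the guard that overlapped, and its pair differed by little, 8.95 against 8.93 CPM. The blocked log2 change was 0.76 ± 0.16 (adjusted p = 0.959 by edgeR). Unblocked it was 0.73 ± 0.20 with all 12 bees and 0.91 without number 35. It was 0.92 ± 0.21 with log10 DWV load as a covariate, which rests largely on Guard 35, and 0.89 without Guard 35 alone. In colony 6 unresponsive bees ran from 0.389 to 3.61 CPM, with a median of 2.88. Guards there had either 0.283 to 0.599 or 3.74 to 5.00 CPM, so no guard stood near their median of 2.17. The change was -0.03 ± 0.71.

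GB54320 was a more abundant gene with a small change shared by all pairs. It ran from 128 to 205 CPM in unresponsive bees, with a median of 165, and from 109 to 162 CPM in guards, with a median of 141. The types overlapped widely, and the unresponsive bee was the higher in 6 of 6 pairs. The log2 change was 0.25 ± 0.12 unblocked and 0.25 ± 0.05 with the block (adjusted p = 0.982 and 0.959 by edgeR). Unresponsive 5 and Guard 5 were the lowest bees of their types. In colony 6 the change was 0.20 ± 0.05 (unadjusted p = 0.00176 by edgeR).

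Among genes with the lower level in unresponsive bees, GB54846 separated the types. Unresponsive bees had 14.9 to 18.8 CPM with a median of 17.1, guards 20.6 to 23.9 CPM with a median of 21.7, and nurses 17.7 to 21.2 CPM with a median of 20.0. No unresponsive bee reached the lowest guard, and nurses overlapped with both types. Unresponsive bees stood 1.31-fold lower, with an interval of 1.16 to 1.47 and a log2 change of -0.39 ± 0.08 (adjusted p = 0.741 by edgeR, 0.0167 by DESeq2). In colony 6 the direction was the same, with a change of -0.25 ± 0.11 (unadjusted p = 0.0303 by edgeR).

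GB53659 also separated the types, by a smaller step. It had 31.5 to 37.4 CPM in unresponsive bees, with a median of 34.7, and 39.0 to 45.3 CPM in guards, with a median of 41.5. Nurses had 34.7 to 43.5 CPM and overlapped with both. The log2 change was -0.27 ± 0.06 (adjusted p = 0.741 by edgeR, 0.0563 by DESeq2), and in colony 6 it was -0.11 ± 0.07.

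GB44021 was lower in the unresponsive bee of 6 of 6 pairs. Unresponsive bees had 75.8 to 92.6 CPM with a median of 87.2, and guards 86.7 to 119 CPM with a median of 109. The overlap came from Guard 35, the guard of low virus load, at 86.7 CPM, and the other 5 guards had at least 106 CPM, above every unresponsive bee. The log2 change was -0.34 ± 0.07 (adjusted p = 0.982 by edgeR, 0.0975 by DESeq2 and 0.0449 by DESeq2 with the block). With log10 DWV load as a covariate it was -0.42 ± 0.06, and without Guard 35 alone it was -0.39. Nurses ran from 75.2 to 108 CPM, and in colony 6 the change was -0.02 ± 0.12.

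GB52629 is given because a fit over all 36 bees, these 12 included, called it together with GB54846. That fit called 2 of 10948 genes (0.0183%), and the adjusted p was 0.0296 for each by edgeR. Within colony 5 it had 21.8 to 25.3 CPM in unresponsive bees, with a median of 23.7, and 19.9 to 20.7 CPM in guards, with a median of 20.4. The guards were within a range of less than 1 CPM and lay below every unresponsive bee, while nurses ran from 19.3 to 24.0 CPM. The log2 change was 0.22 ± 0.06 (adjusted p = 0.982 by edgeR), and in colony 6, at lower levels, it was 0.24 ± 0.08.

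**Figure D4:**
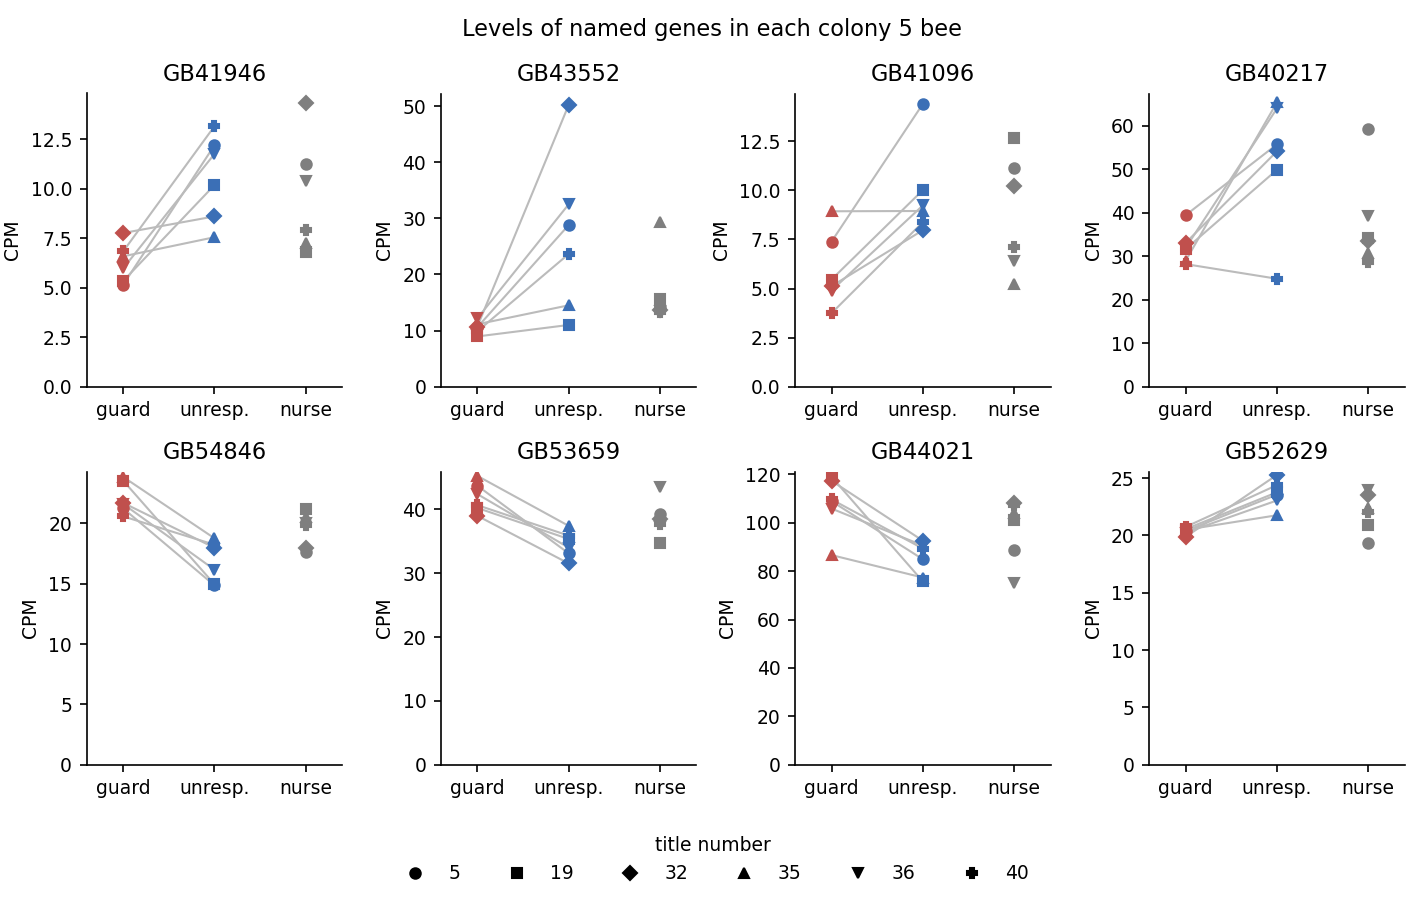
CPM of 8 genes in each colony 5 bee, on axes that start at 0; red points are guards, blue points unresponsive bees and grey points nurses, marker shapes give the title number, and lines join the guard and unresponsive bee of a number. In GB54846, GB53659 and GB52629 the red and blue points do not overlap, and in GB40217 Unresponsive 40 at 24.8 CPM is the 1 blue point below its guard.

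A complete separation of the types was rare. Every unresponsive bee lay above every guard in 11 genes (0.102% of those tested), and every unresponsive bee lay below every guard in 7 (0.0651%). A random choice among the 924 assignments of type separates a gene completely, in either direction, with a probability of 0.00216. The counts of 11 and 7 are not above what this gives over 10760 genes, so separation alone does not mark a difference. These 18 genes included GB54846, GB53659 and GB52629, and the sizes of their log2 changes ran from 0.10 to 1.34. Nurses lay nearer the guards in most of them: the nurse mean was closer to the guard mean in 14 of the 18 and closer to the unresponsive mean in 4. Among the 377 genes of unadjusted p under 0.05 the nurse mean was nearer the guards in 225, or 59.7%, against 52.6% of all genes. It was nearer the guards in 120 of the 218 genes higher in unresponsive bees and in 105 of the 159 lower ones. These shares were not tested.

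The same contrast was then read in colony 6, which shares no bee with colony 5. There 2 of 10765 genes passed by edgeR (0.0186%) and 1293 had an unadjusted p under 0.05 (12%). The median size of a log2 change over the 10612 genes tested in both colonies was 0.0632 in colony 5 and 0.0846 in colony 6, with median SEs of 0.0857 and 0.0863. The groups of colony 6 also differed in virus load, but the other way: 3 of 6 guards and 0 of 6 unresponsive bees were above 1000 RPM, with mean log10 RPM of 2.60 ± 1.48 and 0.892 ± 0.218 (SD, n = 6 each). Type and load thus went together in opposite directions in the colonies.

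Of the genes called in colony 6, 0 of 2 had the same direction in colony 5 with all bees. GB53925 stood in colony 6 at 17.8 ± 8.11 CPM in guards and 3.78 ± 0.451 CPM in unresponsive bees (SD, n = 6 each; log2 change -2.23 ± 0.29, adjusted p = 0.0363 by edgeR). In colony 5 guards ran from 2.93 to 9.89 CPM with a median of 4.93 and unresponsive bees from 3.92 to 6.14 CPM with a median of 5.33, a change of 0.02 ± 0.24. Guard 5, at 9.89 CPM, was the 1 colony 5 guard above the unresponsive bees. GB44709, called in colony 6 at -1.53 ± 0.23 (adjusted p = 0.0427 by edgeR), had medians of 1.36 CPM in unresponsive bees and 1.43 CPM in guards of colony 5, a change of 0.26 ± 0.32. Without Unresponsive 35 the GB44709 change turned to -0.077, and without both bees of number 35 both genes had the colony 6 direction, 2 of 2, at -0.042 for GB53925 and -0.032 for GB44709. By DESeq2, 160 genes were called in colony 6, and 156 of them were read in colony 5. Of these, 113 had the same direction in colony 5, against 7920 of 13328 over all genes, and 0 passed there. Over the pair of genes called by edgeR, with all bees, the median colony 5 change, signed by the direction in colony 6, was -0.14, against 0.025 over all genes.

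Over all genes, equal directions in the colonies outnumbered opposite ones. The direction was equal for 6552 of the 10612 genes (61.7%), and across genes, which are not independent replicates, Pearson's r of the log2 changes was 0.157 and Spearman's rho 0.259. Among the 371 colony 5 genes of unadjusted p under 0.05 that were tested in colony 6, 258 (69.5%) had the same direction there, and 49 also had an unadjusted p under 0.05. Among the 1282 such genes of colony 6 the share was 74.3%, 952 genes. Of the 18 genes whose types did not overlap in colony 5, 17 were tested in colony 6 and 12 had the same direction.

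**Figure D5:**
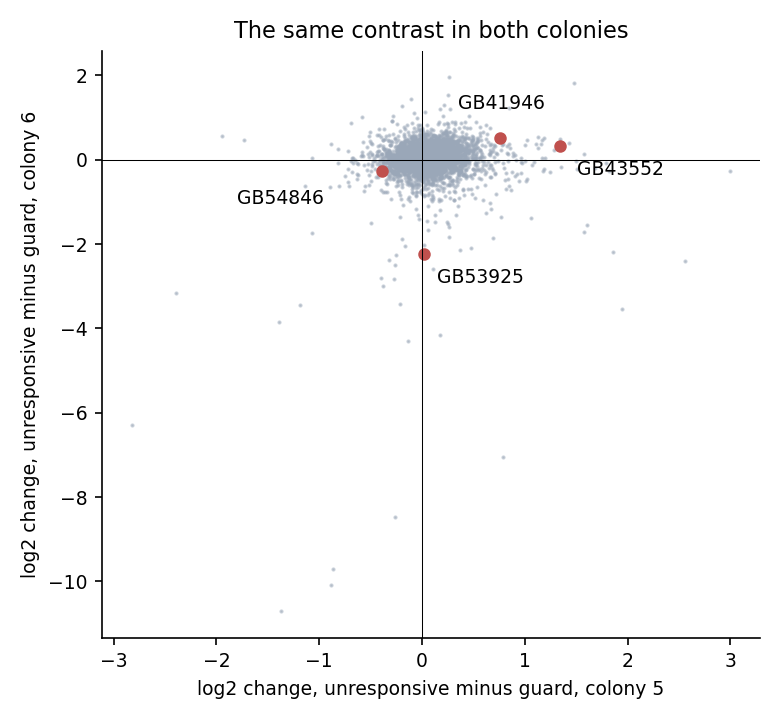
Log2 change of unresponsive bees minus guards in colony 5 (horizontal) against colony 6 (vertical), 1 grey point per gene tested in both, with 4 named genes in red. GB41946 and GB54846 lie in quadrants of equal sign, while GB53925 lies near 0 in colony 5 (0.02) and at -2.23 in colony 6.

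The difference between the colonies was tested gene by gene with the product of type and colony in 24 bees. By edgeR 0 of 10753 genes passed (0%) and 459 had an unadjusted p under 0.05 (4.27%). DESeq2 called 18 of 13809, all 18 with a more positive change in colony 5 than in colony 6. Their log2 differences ran from 0.55 to 9.34. They were 5.09 in GB47545, described below as near 0 in colony 6, and at least 7.83 in GB47318, GB47546, GB50423, GB51223 and GB51306. Differences of that size are no measure of size where a group is near 0, and the levels of the latter genes were not examined. Among the 18 were GB53925 and GB47545 (adjusted p = 5.56e-05 for each by DESeq2) and GB44709 (adjusted p = 0.0290 by DESeq2). With log10 DWV load as a covariate 0 passed by edgeR and 323 had an unadjusted p under 0.05. GB53925 came closest, with a difference of 2.25 ± 0.39 (adjusted p = 0.0782 by edgeR). GB47545 followed (adjusted p = 0.0995 by edgeR): in colony 5 it had medians of 7.74 CPM in unresponsive bees and 7.33 CPM in guards, and in colony 6 each of the 6 unresponsive bees was at 0 and the highest guard at 0.792 CPM, so its fitted difference is no measure of size. In the other direction GB40439 had a change of -0.22 ± 0.07 in colony 5 and 0.11 ± 0.05 in colony 6, and GB49746 had -0.09 ± 0.14 and 0.52 ± 0.10. Their differences were -0.34 ± 0.09 and -0.62 ± 0.17 (adjusted p = 0.450 and 0.490 by edgeR). For GB40217, at 0.71 in colony 5 and -0.04 in colony 6, the difference was 0.74 ± 0.23 (adjusted p = 0.767 by edgeR), and for GB41946 and GB54846 it was 0.25 ± 0.24 and -0.13 ± 0.13. In the main edgeR fit none of the named genes passed the test of a difference between colonies. In other edgeR fits 2 of them did: GB47545 with the number as a block (adjusted p = 0.00893 by edgeR), GB47545 and GB53925 with all 36 libraries (adjusted p = 0.0366 and 0.0242 by edgeR), and GB53925 without Guard 5 (adjusted p = 0.00296 by edgeR).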

How the data were processed

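RNA-seq was made from the dissected brain of single bees with a stranded mRNA kit, per the labels' protocols. What was deposited per bee is a list of raw counts of reads by gene, not normalized by the authors. Tools named in the submitters' processing notes are HTSeq (no version), SAMtools 0.1.19, Bowtie2 2.1.0, TopHat2 2.0.10 and CASAVA 1.8.2. For their order, settings, strand option and annotation, nothing is given in the sources used here, so antisense neighbours and near-identical copies are uncertain. The 5 summary entries that name no gene stayed out of library sizes and tests, of which reads in no gene were 28.7% of counted reads in unresponsive bees and 29.1% in guards. Total, genome and DWV reads come from the labels.

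Counts were analysed in R 4.3.3 with edgeR 4.0.16 (filterByExpr by type, TMM, robust glmQLFit, glmQLFTest, Benjamini-Hochberg) on the 12 bees. Every SE is the log2 change over the square root of F. Intervals use the t distribution. DESeq2 1.42.0, the number as a block, other scalings, filters and sets of bees were alternatives. CPM uses TMM-scaled sizes. The count test was tested on simulated data. Each bee is 1 library, so p-values set a difference against the spread between bees, not between colonies. Library measures were compared with exact permutation tests in Python 3.11.15 with NumPy 2.4.6.

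Named genes have a mean of at least 4 CPM and the smallest p, a pair per direction and model, plus those called in colony 6 (without that minimum), over 36 bees, or by DESeq2, the last chosen after their values were seen. Members and lists were chosen with earlier results of these data known. The gene lists and cell markers planned could not be matched (0 of 15314 IDs), so none was tested.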

Additional observations from a re-analysis of the deposited data

Results flagged for a closer look

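Of 42 groups of 6 bees examined for a single bee far from the others, 4 had one, by a gap to the nearest bee of more than 0.625 of the group's range, which chance gives to about 1 in 20 groups. Guard 35 had a log10 DWV load of 1.3 RPM against a median of 4.03 in guards, a gap of 0.92 of the range. Unresponsive 5 had 14.4 CPM of GB41096 against a median of 9.09 (gap 0.683). Unresponsive 35 had 3.57 CPM of GB44709 against a median of 1.36 (gap 0.673). Guard 5 had 9.89 CPM of GB53925 against a median of 4.93 (gap 0.691).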

How the results depend on the processing

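The count of 0 genes by edgeR held with the title number as a block, with DESeq2 size factors, without a low-count filter, with all 18 or 36 libraries, with DWV load as a covariate and without number 35. DESeq2 called 2 genes, 3 with the replicate block and 8 without number 35 (the last added after seeing the data). Leaving out 1 bee at a time gave 0 to 1 by edgeR and, added after seeing the data, 0 to 5 by DESeq2, with 0 without Guard 5 or Guard 36 and 4 without Unresponsive 32 or Unresponsive 40, so the DESeq2 count depends on single bees. The count at an unadjusted p under 0.05 ran from 266 to 659 over the bees left out, with 579 without Unresponsive 35 and 659 without Unresponsive 36, against 377. The numbers do not pair the bees by the criterion used: deviations of same-numbered bees correlated at -0.141 to 0.303, over 0.1 in 2 of 6 pairs, and 2 unresponsive bees and 1 guard were closest to the bee of their own number.

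The count of 0 for the difference between colonies was 1 with the replicate block (GB47545), 18 with DESeq2, 3 with all 36 libraries (GB47545, GB47805 and GB53925) and 0 to 1 leaving out 1 bee (GB53925 without Guard 5). Of the genes called in colony 6 and read in colony 5, 1 of 3 had the same direction there with the replicate block. The counts were 113 of 156 with DESeq2 (160 called in colony 6) and 2 of 2 without number 35. The difference in DWV load was 0.17 to 0.76 leaving out 1 bee, with exact permutation p up to 0.208. Without any one of the 6 unresponsive bees, or without Guard 35, it was no longer under 0.05. GB53925 changed sign without number 35 (-0.042) and ranged from -0.10 to 0.30 leaving out 1 bee. GB44709 changed sign without number 35 (-0.032) and ranged from -0.077 to 0.45. Of 294 values of the 14 named genes under alternatives, 279 kept direction and side of the threshold, 6 newly passed and 9 changed sign. The causes were not tested. Depth and the spread between 6 bees limit the genes under 10 CPM most.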
